A study of Mus musculus with 8 samples.

Results

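Polycomb repressive complex 2 (PRC2) is the enzyme complex that methylates lysine 27 of histone H3, a mark of silenced genes. Its subunits were followed here as 9 genes: Ezh2, Ezh1, Eed, Suz12, Jarid2, Mtf2, Phf1, Phf19 and Aebp2. They were chosen by name, taking each probe set annotated to a single one of these symbols. This gave 23 of the 20380 probe sets with 1 symbol, and 9 of 12393 genes. For each gene the brightest probe set, by its mean over the 8 arrays, gives the value. Values are log2 intensities, on which a difference of 1 is a doubling. Levels were compared only within a gene, since probe sets differ in brightness for reasons other than the amount of RNA.

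The arrays held RNA of 3 groups of blood-forming cells from mice labelled C57/BL6 and 12 weeks old. LSK cells (3 arrays) were normal bone marrow cells without lineage markers and with Sca1 and Kit, a fraction enriched for stem and multipotent progenitor cells. WT LICs (3 arrays) were leukaemia-initiating cells with these markers plus GFP, sorted 14 days after transplantation in a retroviral model of chronic myeloid leukaemia (CML). Ezh2 KO LICs (2 arrays) came from the same model without Ezh2. Both kinds of LIC thus share transplantation, retroviral transduction and leukaemia, none of which is on the labels of the LSK cells, so in comparisons with LSK cells these cannot be told apart. The labels and the design text leave unstated the oncogene, the Ezh2 allele, how and when it was deleted, whether animals were pooled, and their sex. Repeats are labelled biological, but nothing says that they came from separate animals, so p-values measure the spread between these arrays.

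Array medians lay between 6.42 and 6.57. Background was taken as 4.01, the highest mean among 27 bacterial control probe sets. Of 8 LSK marker genes 6 were measured, and 5 (Kit, Cd34, Flt3, Meis1 and Hlf) stood above background in each group. Mecom did not, and Ly6a, which encodes Sca1, was not among the genes with a probe set of 1 symbol. The 6 measured LSK markers summed to 10140.6 to 10752.5 intensity units in LSK cells. In both kinds of LIC the sum was lower, at 4589 to 7059 in WT LICs and 6136 to 7370 in Ezh2 KO LICs. Markers of other cells moved with the groups. The 8 measured B cell markers summed to 838 to 1167 intensity units in LSK cells, 451 to 891 in WT LICs and 4314 to 7382 in Ezh2 KO LICs. The group means of Pax5 and Ms4a1 were under background in all groups and those of the other 6 above it. Yet Vpreb3 fell under it on the first and second LSK arrays (3.90 and 3.74) and the second WT LIC array (3.89). Ebf1 did so on the first LSK and the second WT LIC array, and Igll1 on the second LSK array. The 4 measured markers of antibody-secreting cells summed to 3390 to 4671, 1195 to 1466 and 1357 to 1576 in the same order, and the group means were above background except that of Prdm1 in Ezh2 KO LICs. For monocytes and macrophages the sums over 5 markers were 3391 to 3762, 1038 to 2147 and 1413 to 1573, and for megakaryocytes over 5 markers 1286 to 2263, 307 to 612 and 409 to 454. Such sums follow the brightest probe sets, and single markers could differ: Ccr2, of the monocyte list, read 6.69 to 7.02 in LSK cells and 7.14 to 8.99 in WT LICs. The 4 measured erythroid markers summed to 225 to 290, 84.5 to 2167 and 120 to 235. Their spread in WT LICs came from the third array, where Klf1, an erythroid transcription factor, read 4.89 against 10.78 and 9.81 on the first and second. That array also correlated less with the others of its group (r = 0.97 and 0.97) than those did with each other (0.99). Without it limma called the same number of PRC2 subunits in each comparison, 0, 1 and 2, with Ezh2 at -2.14 against WT LICs (adjusted p = 0.0171). The part of such cells in the differences of PRC2 genes was not tested, and in bulk RNA fewer cells of a type and less RNA per cell cannot be told apart.

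In PRC2, Ezh2 or its paralog Ezh1 holds the catalytic SET domain, Eed binds the methylated histone tail and stimulates the enzyme, and Suz12 is the scaffold on which the complex assembles. The remaining subunits are facultative. Mtf2, Phf1 and Phf19, the Polycomb-like proteins, define one form of the complex, and Jarid2 with Aebp2 defines the other. In blood formation Ezh2 is the predominant enzyme of dividing progenitors, while Ezh1 is associated with cells that divide little. Ezh2 and Eed are known targets of E2F, the transcription factor family of the cell cycle.

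The promoters of the paralogs Ezh2 and Ezh1 are shown with that of Suz12 because WT LICs lay above LSK cells in Ezh2 and Suz12 and below them in Ezh1, without passing the test. Each window runs from 250 bases before to 30 bases after a RefSeq start (GRCm38.p6), 5′ to 3′ on the strand of the gene. Capitals mark E2F-type letters (TTTGGCGC, TTTCGCGC, TTTCCCGC or TTTGCCGC) and the CCAAT box (CCAAT), searched on both strands. These motifs do not overlap one another.
Ezh2, chr6:47595001-47595280, minus strand: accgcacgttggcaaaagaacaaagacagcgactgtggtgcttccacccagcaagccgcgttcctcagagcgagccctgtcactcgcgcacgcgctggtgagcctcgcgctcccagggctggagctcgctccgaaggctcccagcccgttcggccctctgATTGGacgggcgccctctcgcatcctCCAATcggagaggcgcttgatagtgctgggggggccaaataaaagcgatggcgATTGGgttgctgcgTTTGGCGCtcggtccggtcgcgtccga
Ezh1, chr11:101226434-101226713, minus strand: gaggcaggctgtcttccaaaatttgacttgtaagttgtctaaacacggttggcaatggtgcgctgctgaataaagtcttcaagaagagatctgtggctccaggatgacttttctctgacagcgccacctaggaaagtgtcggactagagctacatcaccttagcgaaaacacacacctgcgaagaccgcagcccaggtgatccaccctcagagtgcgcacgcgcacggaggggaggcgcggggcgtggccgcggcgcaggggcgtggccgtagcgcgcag
Suz12, chr11:79992856-79993135, plus strand: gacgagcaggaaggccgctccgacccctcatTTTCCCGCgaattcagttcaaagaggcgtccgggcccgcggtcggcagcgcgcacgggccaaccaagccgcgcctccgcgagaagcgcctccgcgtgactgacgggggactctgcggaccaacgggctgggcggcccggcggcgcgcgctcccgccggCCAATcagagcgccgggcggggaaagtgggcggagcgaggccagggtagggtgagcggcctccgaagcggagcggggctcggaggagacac
The Ezh2 window held 1 E2F-type match, which begins 4 bases after the start, and 3 CCAAT boxes, which begin at positions -90, -64 and -11. The RefSeq locus of Ezh2 reaches to 47595270, inside this window, so these positions count from a start within the annotated gene. In the Suz12 window there was 1 E2F-type match at -219 and 1 CCAAT box at -61. The Ezh1 window held no match to either motif. All 9 genes matched the RefSeq table, with 13 windows in all. The other window with an E2F-type match was that of Phf19. A CCAAT box was in 7 of the 13, also in those of Eed, both of Jarid2, 1 of Mtf2 and 1 of Aebp2, and the window of Phf1, 1 of Mtf2 and 2 of Aebp2 resembled that of Ezh1 in holding neither motif. Of 32851 promoter windows of this length, 2.12% held an E2F-type match, 36.1% at least 1 CCAAT box, 3.19% at least 3, and 0.88% both motifs. These shares were not matched for base composition. G and C made up 64.6%, 73.6% and 74.6% of the windows of Ezh2, Suz12 and Phf19, and 58.2% of that of Ezh1. The median over all windows was 52.5%. A match describes letters and is not a measured binding site.

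Ezh2, the targeted enzyme, fell in the knockout and was the member with the smallest p in both comparisons with Ezh2 KO LICs. It stood at 8.94 and 9.55 on the Ezh2 KO arrays, at 11.33, 11.44 and 11.26 on the WT LIC arrays, and at 10.77, 10.95 and 11.07 on the LSK arrays. The groups did not overlap: WT LICs were highest, LSK cells intermediate and Ezh2 KO LICs lowest. Ezh2 fell by 2.10 against WT LICs (SE 0.21, 95% interval -2.59 to -1.61, 4.29-fold lower, limma adjusted p = 0.00985). Against LSK cells it fell by 1.69 (SE 0.21, 95% interval -2.18 to -1.20, 3.22-fold lower, limma adjusted p = 0.0107). Signal remained far above background on both knockout arrays. The gene has 1 probe set, whose place relative to the deleted part is not given, so these values do not check the genotype. With the 2 kinds of LIC fitted without the LSK arrays, the difference between them missed the threshold (adjusted p = 0.0550). WT LICs lay above LSK cells by 0.42, which did not pass the test (SE 0.19, 95% interval -0.02 to 0.85, limma adjusted p = 0.265).

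**Figure D1:**
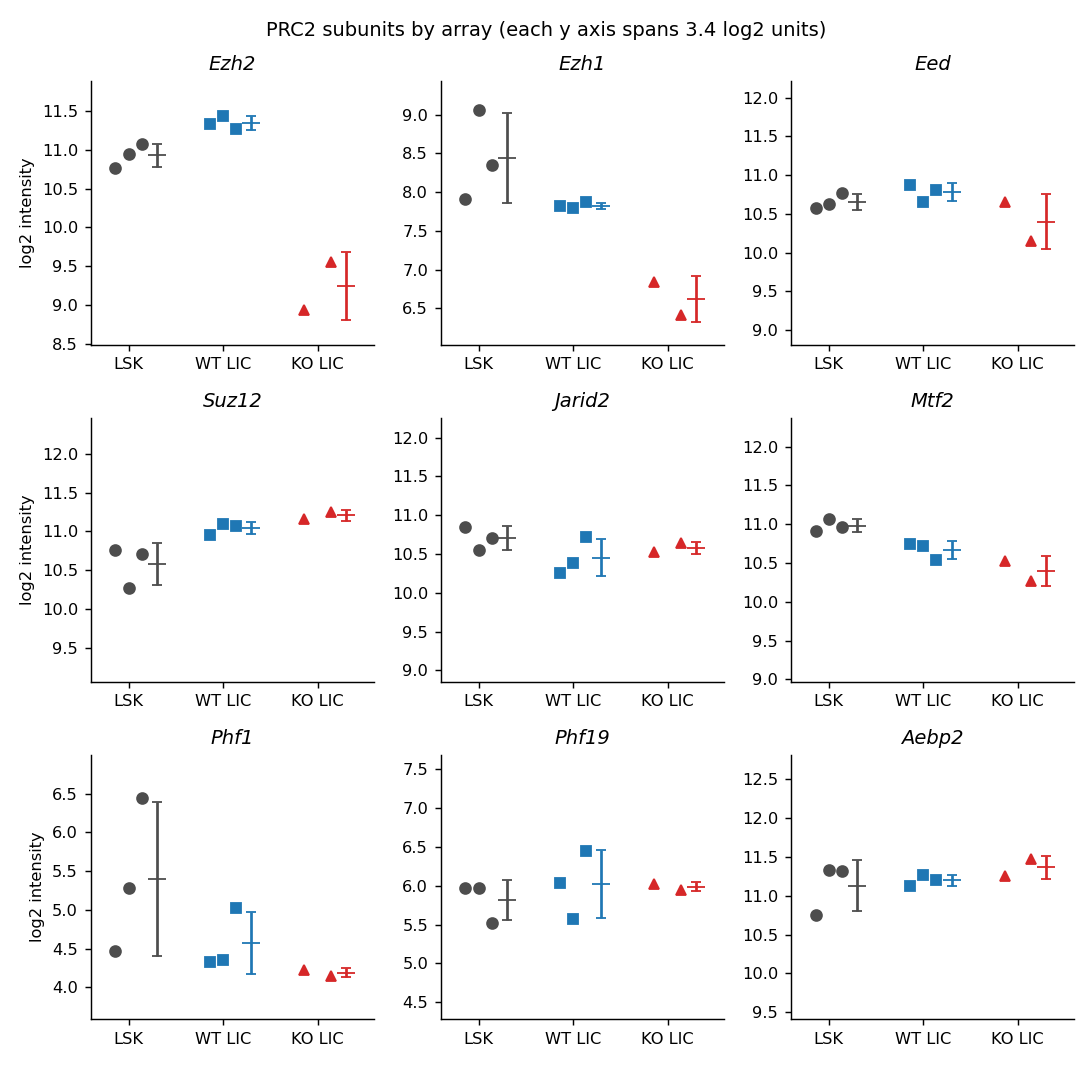
Log2 intensity of the 9 PRC2 subunits on each of the 8 arrays, by group (LSK, WT LIC, Ezh2 KO LIC). Points are arrays. Beside them a horizontal bar marks the group mean and a capped vertical bar the SD of the group. Each panel spans the same number of log2 units. Ezh2, Ezh1, Eed, Mtf2 and Phf1 have their lowest points in the Ezh2 KO LICs, Suz12 and Aebp2 have their highest there, and Phf1 varies most among the LSK arrays.

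Ezh1, the paralog that can take the place of Ezh2, was lower in Ezh2 KO LICs than in either other group, and it passed the test against LSK cells. Its values were 6.83 and 6.41 on the Ezh2 KO arrays, 7.81, 7.79 and 7.87 on the WT LIC arrays, and 7.91, 9.05 and 8.35 on the LSK arrays. LSK cells were highest and spread widest, WT LICs lay close together just under the lowest LSK array, and the knockout arrays were below all others. Against LSK cells Ezh1 fell by 1.82 in Ezh2 KO LICs (SE 0.32, 95% interval -2.56 to -1.08, 3.52-fold lower, limma adjusted p = 0.0292). The difference from WT LICs was -1.20 (SE 0.32, 95% interval -1.94 to -0.46, limma adjusted p = 0.212, unadjusted p = 0.00602), and that between WT LICs and LSK cells was -0.61 (SE 0.28, 95% interval -1.28 to 0.05, limma adjusted p = 0.276). No rise of Ezh1 was therefore measured where Ezh2 was low, on either probe set.

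The second Ezh1 probe set had the same sign in each comparison. It read 6.45 and 5.64 in Ezh2 KO LICs, 6.46, 6.26 and 7.30 in WT LICs, and 7.15, 7.88 and 7.31 in LSK cells. Here WT and Ezh2 KO LICs overlapped, and the difference between Ezh2 KO LICs and LSK cells was -1.40 (SE 0.39, limma adjusted p over all probe sets 0.112). With the mean of both probe sets, the Ezh1 difference was -1.61 (adjusted p = 0.0396).

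The call on Ezh1 against LSK cells rests on few arrays. Across 18 alternative settings its value stayed between -2.08 and -1.51, and its adjusted p ranged from 0.0224 to 0.151 and missed the threshold in 7. It was 0.0708 without the third LSK array, 0.0561 and 0.0524 without the first and second WT LIC array, 0.0911 and 0.151 without the first and second Ezh2 KO array, 0.0714 with those groups fitted alone, and 0.0915 with the repeat number as a block. Whether these numbers pair the samples is not stated on the labels.

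The balance of the paralogs was read as the Ezh1 value minus the Ezh2 value on each array, which shows unequal change and not which transcript is more abundant. It was -2.86, -1.89 and -2.72 in LSK cells, -3.52, -3.65 and -3.40 in WT LICs, and -2.10 and -3.14 in Ezh2 KO LICs. WT LICs were lowest and did not overlap with the other groups, which overlapped with each other. The balance differed by -1.03 between WT LICs and LSK cells (SE 0.34, 95% interval -1.81 to -0.25, limma adjusted p = 0.143). In Ezh2 KO LICs it lay 0.90 above WT LICs (SE 0.37, 95% interval 0.02 to 1.77, limma adjusted p = 0.437), and its difference from LSK cells was -0.13 (SE 0.37, 95% interval -1.01 to 0.75, limma adjusted p = 0.897). None of these passed the test, and the last turned positive without the second LSK array, without the second Ezh2 KO array and with the mean of all probe sets.

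**Figure D2:**
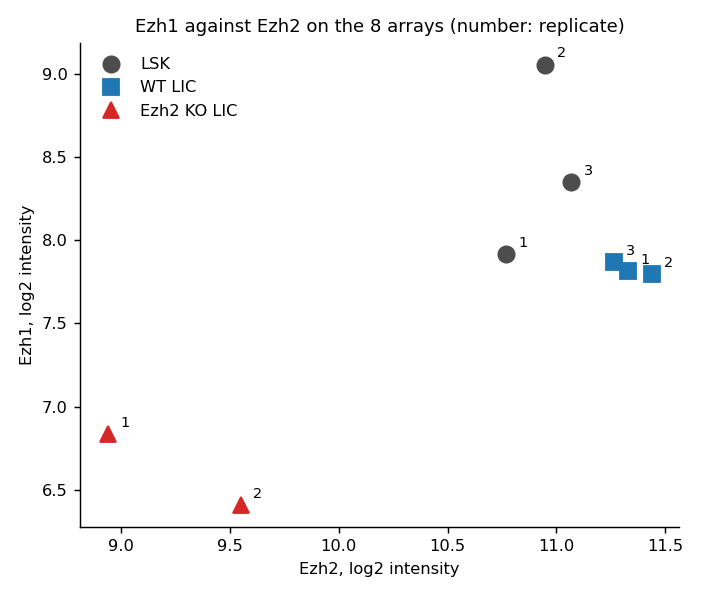
Ezh1 (y axis) against Ezh2 (x axis), both as log2 intensity, with 1 point per array coloured by group and numbered by replicate. WT LICs sit at the lower right of the LSK arrays, and the 2 Ezh2 KO arrays sit apart at the lower left, low in both genes.

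By likeness of pattern, the 5926 genes brighter than the median were ranked by Pearson correlation with each paralog over the 8 arrays, as a description across arrays that share the same 3 groups. For Ezh2 the highest were Map4k1 (r = 0.97), Slc48a1 (0.95), Ctsd (0.95), Vkorc1 (0.95) and Brap (0.94), and the lowest Sumo3 (-0.95) and Chtop (-0.94). For Ezh1 they were Eml3 (0.97), Lsm10 (0.97), Fth1 (0.96), Chmp2a (0.96) and Slc44a2 (0.96), with Pkp4 (-0.98) and Nln (-0.98) lowest. Map4k1, a kinase of blood cells, had group means of 9.55 in LSK cells, 9.66 in WT LICs and 8.90 in Ezh2 KO LICs, the order that Ezh2 had. Fth1, the ferritin heavy chain that stores iron, had means of 12.71, 12.62 and 12.49 in that order.

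Neither core partner, Eed or Suz12, passed the test in any comparison. Eed read 10.57, 10.63 and 10.77 in LSK cells, 10.87, 10.65 and 10.81 in WT LICs, and 10.65 and 10.15 in Ezh2 KO LICs. The knockout arrays differed from each other by more than the other groups spread, and only the second was below all LSK arrays. In Ezh2 KO LICs, Eed differed by -0.38 from WT LICs (SE 0.19, 95% interval -0.81 to 0.06, limma adjusted p = 0.50) and by -0.25 from LSK cells (95% interval -0.69 to 0.18). WT LICs differed from LSK cells by 0.12 (95% interval -0.27 to 0.51). Its other probe set stayed under background.

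Suz12 read 10.76, 10.26 and 10.70 in LSK cells, 10.95, 11.09 and 11.07 in WT LICs, and 11.15 and 11.25 in Ezh2 KO LICs. All LIC arrays lay above all LSK arrays, with the knockout on top, and no comparison passed the test. Against LSK cells Suz12 lay higher by 0.47 in WT LICs (SE 0.17, 95% interval 0.08 to 0.85, limma adjusted p = 0.170) and by 0.63 in Ezh2 KO LICs (SE 0.18, 95% interval 0.20 to 1.06, limma adjusted p = 0.116). The 2 kinds of LIC differed by 0.16 (SE 0.18, 95% interval -0.27 to 0.59). The gene has 6 probe sets, read on the same arrays and so not independent, and the transcripts each one detects were not analysed here. On the 5 bright ones each of the 3 differences was positive, from 0.42 to 0.67 for Ezh2 KO LICs against LSK cells. The sixth lay between 4.04 and 4.95, close to background.

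The Polycomb-like proteins, which help the complex to bind unmethylated CpG-rich DNA and the mark of active genes, passed no test in any comparison. Mtf2 read 10.91, 11.07 and 10.96 in LSK cells, 10.75, 10.72 and 10.54 in WT LICs, and 10.53 and 10.26 in Ezh2 KO LICs. On this probe set the order was LSK cells, WT LICs, Ezh2 KO LICs with no overlap. The difference from LSK cells was -0.58 in Ezh2 KO LICs (SE 0.16, 95% interval -0.95 to -0.22, limma adjusted p = 0.0915) and -0.31 in WT LICs (SE 0.14, limma adjusted p = 0.258), and that of Ezh2 KO from WT LICs was -0.27 (SE 0.16, limma adjusted p = 0.562).

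The other Mtf2 probe sets went different ways, so no direction can be given for the gene. The second, nearly as bright (mean 10.71 against 10.72), read 10.84, 10.44 and 10.77 in LSK cells, 10.07, 10.63 and 10.85 in WT LICs, and 10.90 and 11.21 in Ezh2 KO LICs. It was highest in the knockout, where the first was lowest. Between Ezh2 KO LICs and LSK cells the 4 probe sets differed by -0.58, 0.37, -0.23 and 0.50, and their mean by 0.01. Which transcripts each one detects was not analysed here.

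Phf1 and Phf19 were dim. Phf1 read 4.46, 5.28 and 6.44 in LSK cells, 4.33, 4.36 and 5.03 in WT LICs, and 4.23 and 4.15 in Ezh2 KO LICs. Its spread among LSK arrays (SD 0.99) was larger than the difference between WT LICs and LSK cells (-0.82), and its difference between Ezh2 KO LICs and LSK cells was -1.21 (SE 0.52, 95% interval -2.43 to 0.01, limma adjusted p = 0.265). Phf19 read 5.97, 5.97 and 5.52 in LSK cells, 6.04, 5.57 and 6.44 in WT LICs, and 6.03 and 5.95 in Ezh2 KO LICs. The groups of Phf19 overlapped in every comparison, with differences of 0.20, -0.03 and 0.17, and its other probe set was under background.

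Jarid2 and Aebp2, which bind ubiquitylated histone H2A next to the complex, passed no test. Jarid2 read 10.85, 10.55 and 10.70 in LSK cells, 10.25, 10.39 and 10.72 in WT LICs, and 10.53 and 10.64 in Ezh2 KO LICs. On this probe set groups overlapped throughout, and the Jarid2 difference between Ezh2 KO and WT LICs was 0.13 (SE 0.19, 95% interval -0.31 to 0.57). On its 3 probe sets the difference of Ezh2 KO LICs from LSK cells was -0.12, -0.59 and 0.08. On the second of these, WT LICs lay below LSK cells without overlap (-0.50, limma adjusted p over all probe sets 0.370). Aebp2 read 10.75, 11.33 and 11.31 in LSK cells, 11.12, 11.27 and 11.21 in WT LICs, and 11.26 and 11.47 in Ezh2 KO LICs. Its groups overlapped as well, and against LSK cells it differed by 0.07 in WT LICs and by 0.23 in Ezh2 KO LICs. Ezh2 KO differed from WT LICs by 0.17 (95% interval -0.33 to 0.66). The other Aebp2 probe set, between 3.98 and 5.03, was near background.

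Counted over the complex, few subunits passed the test. Between WT LICs and LSK cells limma called 0 of 9 members against 3.42% of all genes (1.27% higher, 2.15% lower), with 1 member (Suz12) at an unadjusted p under 0.05 against 20.6% of all genes. Between Ezh2 KO and WT LICs 1 member was called, Ezh2, which was lower, against 0.637% of all genes (0.589% higher, 0.0484% lower). Ezh2 is the targeted gene and is among the members in every count given here, and its fall says nothing about the other subunits. At an unadjusted p under 0.05 there were 2, against 11.1%. For Ezh2 KO LICs against LSK cells 2 were called, Ezh2 and Ezh1, both lower, against 3.47% of all genes (1.61% higher, 1.86% lower), with 4 at an unadjusted p under 0.05 against 19.2%. Arrays did not overlap for 4 members (2 higher, 2 lower) in the first comparison, against 26.7% of all genes (13.5% higher, 13.2% lower). In the second these were 6 (1 higher, 5 lower) against 29.8% (13.2% higher, 16.6% lower). In the third they were 5 (1 higher, 4 lower) against 38.7% (18.2% higher, 20.5% lower). The median member differed by 0.07, -0.27 and -0.25, beside 0.02, -0.05 and -0.02 over all genes. Of the 23 probe sets, 0, 1 and 2 were called in the same order, against 2.68%, 0.51% and 2.86% of all probe sets. These comparisons share arrays, so they are given side by side.

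**Figure D3:**
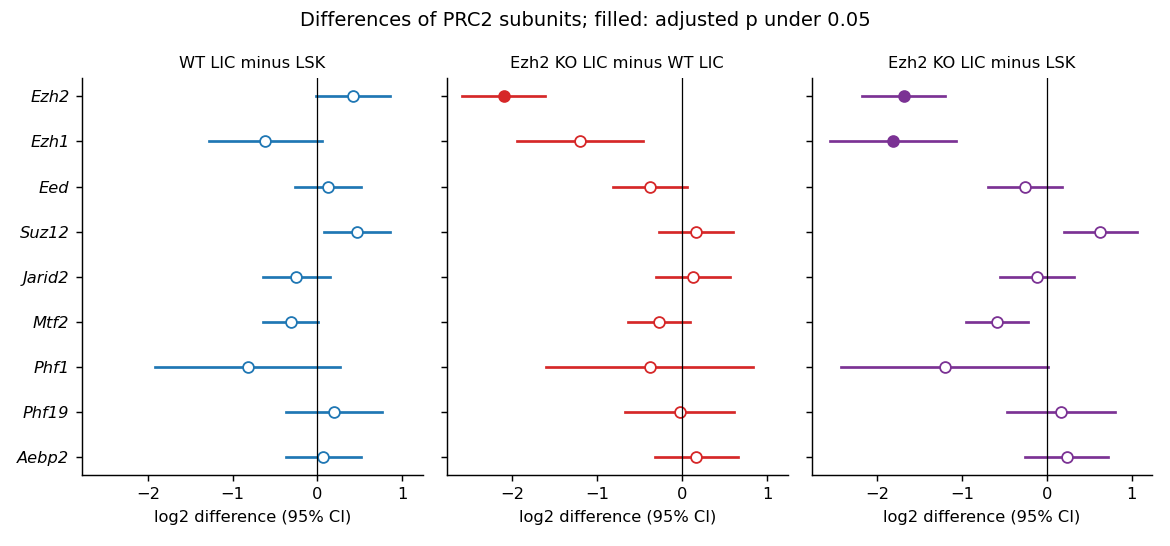
Log2 difference of each of the 9 PRC2 subunits (points) with its 95% interval (bars) in the 3 comparisons; filled points have an adjusted p under 0.05. Filled points are Ezh2 at -2.10 in the knockout against WT LICs, and Ezh2 at -1.69 and Ezh1 at -1.82 in the knockout against LSK cells.

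**Figure D4:**
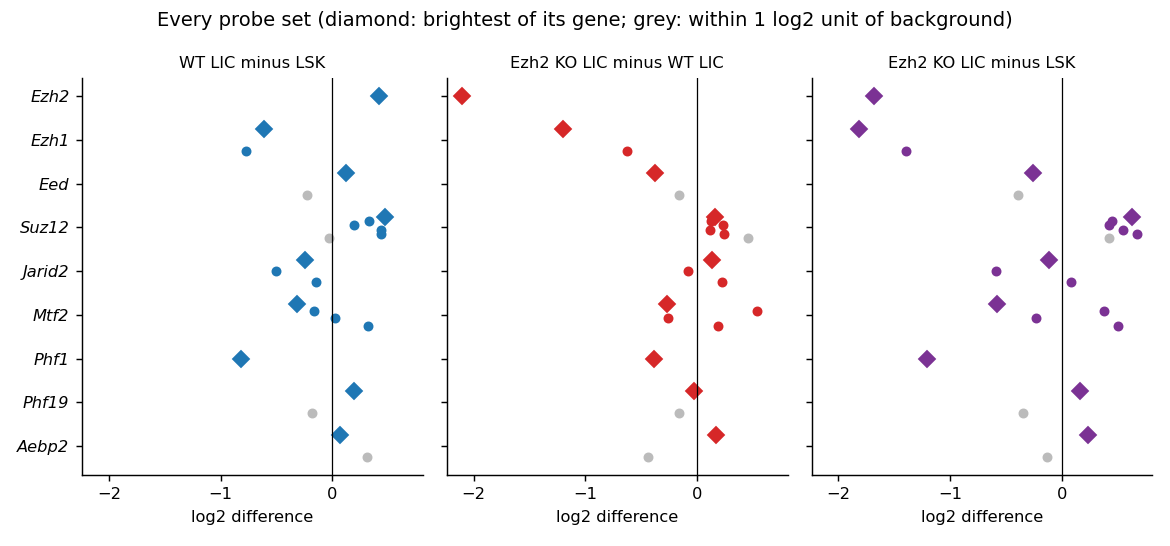
Log2 difference of each of the 23 probe sets in the 3 comparisons, in rows by gene, with a diamond for the brightest of its gene and grey for those within 1 log2 unit of background. The 5 bright Suz12 probe sets lie right of 0 in every panel, both Ezh1 probe sets lie left of 0, and the 4 of Mtf2 fall on both sides.

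Counts in the lists that follow stand beside the same shares of all genes: 3.42%, 0.637% and 3.47% called, and 20.6%, 11.1% and 19.2% at an unadjusted p under 0.05. Further partners of PRC2 gave no call. Of 6 listed, 5 were measured: the histone chaperones Rbbp4 and Rbbp7, and the genes Epop, Lcor and Lcorl, listed for accessory subunits. Which transcripts of Lcor and Lcorl the probe sets detect was not analysed here. Lcor was dim, with means of 5.51 in LSK cells, 4.66 in WT LICs and 4.11 in Ezh2 KO LICs. limma called 0 in each comparison (WT LICs against LSK cells, Ezh2 KO against WT LICs, Ezh2 KO LICs against LSK cells), with 0, 1 and 1 at an unadjusted p under 0.05 and list medians of -0.04, 0.03 and 0.15. Epop, which links PRC2 to elongin, read 7.48, 6.54 and 6.47 in LSK cells, 6.53, 6.06 and 6.59 in WT LICs, and 7.60 and 8.01 in Ezh2 KO LICs. The knockout arrays were above all others, and the Epop difference from WT LICs was 1.41 (SE 0.34, limma adjusted p = 0.179).

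The enzymes that remove the mark and the complex that reads it were listed as well. Of the demethylase genes Kdm6a, Kdm6b and Uty, 2 were measured. Kdm6a was not called in any comparison, and Uty, its Y-linked copy with little enzyme activity, was called higher in both kinds of LIC than in LSK cells (at least 3.06-fold, limma adjusted p = 0.00369 in WT LICs, and at least 2.33-fold, limma adjusted p = 0.0107 in Ezh2 KO LICs; 0.0560 and 0.0640 without the first and second Ezh2 KO array). Uty was under background on all 3 LSK arrays (2.06, 2.49 and 2.50) and above it on all LIC arrays (5.13 to 6.38). A difference in sex between the animals and the group therefore cannot be told apart, for Uty or for any other gene compared with LSK cells. Of the Cbx proteins of PRC1, which bind the methylated lysine, 4 of 5 were measured and limma called 0, with 1, 0 and 0 at an unadjusted p under 0.05 and medians of -0.38, 0.18 and -0.30. Of the subunits of the H2A deubiquitinase 2 of 3 were measured, and limma called 0, with 0 at an unadjusted p under 0.05 and medians of -0.01, -0.10 and -0.11.

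Among 15 other PRC1 subunits 11 were measured, and limma called 0, 1 and 1, the same gene, Bmi1, with 3, 5 and 3 at an unadjusted p under 0.05 and list medians of -0.02, 0.13 and 0.21. Between the 2 kinds of LIC, the uncalled ones among the 5 went both ways. Rnf2 differed by 0.84, Ring1 by -0.91, Phc2 by -0.61 and Pcgf1 by -0.39 (limma adjusted p from 0.186 to 0.412). Bmi1, a partner of the ubiquitin ligase Rnf2 known for its role in stem cell self-renewal, read 10.59, 10.51 and 10.54 in LSK cells, 10.31, 10.49 and 10.14 in WT LICs, and 11.52 and 11.70 in Ezh2 KO LICs. The 2 knockout arrays stood above the other 6. Bmi1 rose by 1.30 against WT LICs (SE 0.16, limma adjusted p = 0.0193) and by 1.06 against LSK cells (SE 0.16, limma adjusted p = 0.0198). The first call was lost in 5 of 18 settings, which include leaving out the first WT LIC array (adjusted p = 0.0706) or either Ezh2 KO array (0.0594 and 0.118). The second was lost in 6, which include leaving out any LSK array (0.0521, 0.0508 and 0.0538) or either Ezh2 KO array (0.0694 and 0.111).

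Of 18 genes reported elsewhere as repressed by Polycomb, 17 were measured, and for most of these the probe set gave no signal. In the comparison of Ezh2 KO LICs with LSK cells 14 were not called, and 12 of the 14 had means under background in both groups, so nothing can be read from them. The remaining 2, Cdkn1c and Fzd7, differed by -0.35 and -0.65. Against LSK cells limma called 1 higher in WT LICs and 3 in Ezh2 KO LICs, against WT LICs it called 1 higher in Ezh2 KO LICs, and it called 0 lower in any comparison, with 2, 3 and 3 at an unadjusted p under 0.05. The list medians were 0.11 and 0.01 against LSK cells for WT and Ezh2 KO LICs, and -0.01 for Ezh2 KO against WT LICs; each rests on genes without signal, since 12, 12 and 11 of 17 were under background in both groups of these comparisons. The list was chosen with earlier results of these data known, so its direction is not independent evidence. The 3 genes called higher against LSK cells were Hmga2, Igf2bp3 and Cdkn2a.

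Hmga2, a chromatin protein of fetal stem cells, read 9.92, 10.07 and 10.14 in LSK cells, 11.16, 11.60 and 11.14 in WT LICs, and 12.12 and 12.96 in Ezh2 KO LICs. Its groups did not overlap and stood in that order. Hmga2 rose by 2.50 between LSK cells and Ezh2 KO LICs (SE 0.27, limma adjusted p = 0.00711), a call kept in 18 of 18 settings. It rose by 1.26 between LSK cells and WT LICs (SE 0.24, limma adjusted p = 0.0384), a call lost without any of the LSK arrays (0.110, 0.0945 and 0.0988) or without the first or second WT LIC array (0.0974 and 0.114), and the difference of 1.24 between the 2 kinds of LIC did not pass (SE 0.27, limma adjusted p = 0.142).

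Igf2bp3, a fetal RNA-binding protein, read 5.36, 3.75 and 4.70 in LSK cells, 5.75, 5.84 and 4.64 in WT LICs, and 9.26 and 9.01 in Ezh2 KO LICs. It was high only on the 2 knockout arrays. Igf2bp3 rose by 3.73 against WT LICs (SE 0.52, limma adjusted p = 0.0288) and by 4.54 against LSK cells (SE 0.52, limma adjusted p = 0.00829, lost without the first Ezh2 KO array at 0.0519). The first of these calls was lost in 7 of 18 settings, among them without the third LSK array (0.0647), the first or second WT LIC array (0.0851 and 0.0681) or either Ezh2 KO array (0.122 and 0.140). Cdkn2a, which encodes cell cycle inhibitors, read 2.45, 2.97 and 2.34 in LSK cells, 3.94, 4.51 and 2.40 in WT LICs, and 8.46 and 6.69 in Ezh2 KO LICs. Its means in LSK cells and WT LICs were under background. In Ezh2 KO LICs Cdkn2a was at least 11.8-fold higher than in LSK cells (limma adjusted p = 0.0157; 0.0502 without the third LSK array and 0.0755 without the first Ezh2 KO array), and the difference from WT LICs missed the threshold (limma adjusted p = 0.0707). The sum of the B cell markers given above was also highest on the knockout arrays, though not every marker was. Cd79b read 9.47 on the second Ezh2 KO array and 9.68 on the second LSK array, and Pax5 and Ms4a1 stayed under background. The part of B cells in the differences of Igf2bp3 and Cdkn2a was not tested.

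**Figure D5:**
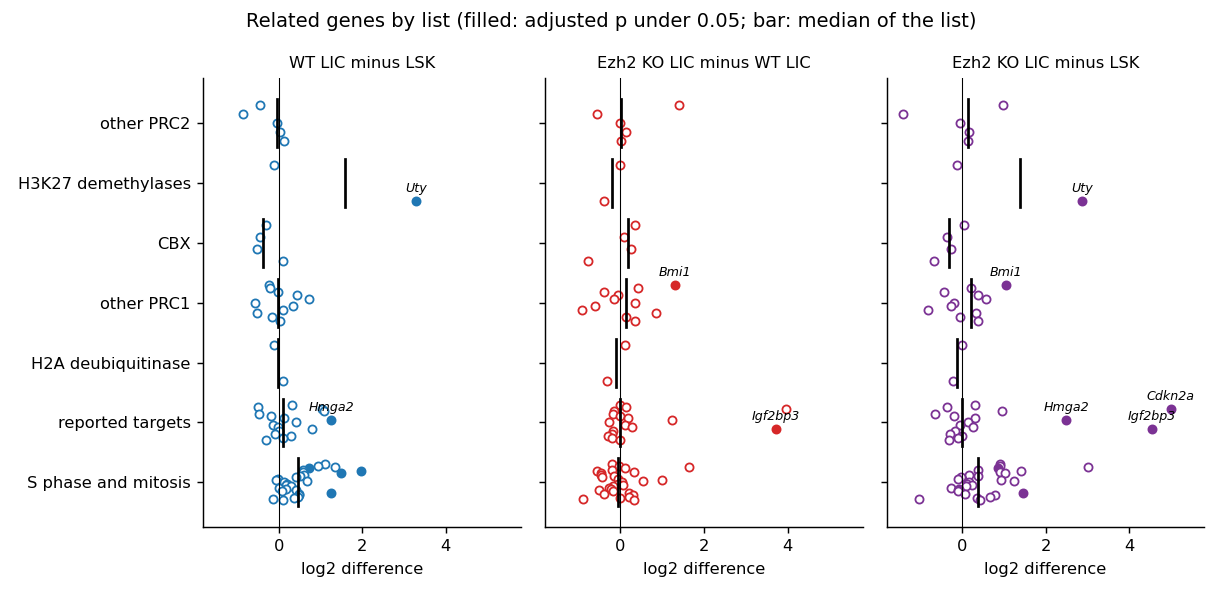
Log2 differences of the measured genes of each related list (points; filled where the adjusted p is under 0.05) in the 3 comparisons, with a bar at the median of each list. In the comparisons with Ezh2 KO LICs, Igf2bp3, Cdkn2a and Hmga2 lie to the right of the other reported Polycomb targets, of which most were under background in both groups and so have no readable difference, and the proliferation list has medians of 0.46, -0.07 and 0.38.

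Since Ezh2, Eed and Suz12 are commonly expressed with genes of S phase and mitosis, 31 such genes were listed, of which 29 were measured. Against LSK cells limma called 4 higher in WT LICs (Cdc20, Plk1, Ccne1 and Ccna2) and 2 higher in Ezh2 KO LICs (Plk1 and Ccna2), with 12 and 11 at an unadjusted p under 0.05 and positive differences for 26 and 22 of 29. Over all genes 1.27% and 1.61% were called higher, and 20.6% and 19.2% had an unadjusted p under 0.05. Between the 2 kinds of LIC it called 0, with 3 at an unadjusted p under 0.05 and 12 positive. The list medians were 0.46 and 0.38 against LSK cells and -0.07 between the kinds of LIC. The median of the list on each array, as the deviation from each gene's mean, was -0.16, -0.38 and -0.21 in LSK cells, 0.21, 0.20 and 0.13 in WT LICs, and 0.16 and 0.02 in Ezh2 KO LICs. All 5 LIC arrays were above all LSK arrays. The same order held for Suz12 but not for Eed, nor for Ezh2, which was lowest in Ezh2 KO LICs. Over all genes, 13.5% were higher without overlap in WT LICs than in LSK cells, and 18.2% in Ezh2 KO LICs than in LSK cells. Cdc20, which triggers the exit from mitosis, rose by 1.49 between LSK cells and WT LICs (limma adjusted p = 0.0225), and the S phase cyclins rose as well, Ccne1 by 1.96 (limma adjusted p = 0.0371) and Ccna2 by 0.73 (limma adjusted p = 0.0386). The mitotic kinase Plk1 rose by 1.26 in WT LICs (limma adjusted p = 0.0221) and by 1.46 in Ezh2 KO LICs (limma adjusted p = 0.0208), and Ccna2 by 0.85 in the latter (limma adjusted p = 0.0358). These calls were lost in 4 to 9 of 18 settings each. With the third LSK array, the first WT LIC array or the second WT LIC array left out, 0 of the list were called for WT LICs, and without the second Ezh2 KO array 0 were called for Ezh2 KO LICs. The part of cell division in the differences of Ezh2, Ezh1 and Suz12 was not tested.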

How the data were processed

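Per the labels' protocols, RNA of cells sorted 2 times was amplified by SPIA and labelled with biotin; normalization was by RMA (version not stated), per the submitters' processing notes. Deposited values were intensity values on a linear scale, from 1.94 to 19343.1. They were turned into log2 values with no pseudocount; log2 values had been assumed when the test was chosen, which stayed the same. Of 22690 probe sets, 64 controls, 691 with several symbols and 1555 not listed in the annotation were left out.

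All 8 arrays were fitted in limma 3.58.1 (R 4.3.3; lmFit, eBayes) with group as the only term and 5 residual degrees of freedom. Tests were two-sided. A call means an adjusted p under 0.05 by Benjamini-Hochberg over 12393 genes; the balance entered as 1 more feature. With so few arrays precision is limited: the median SE over all genes was 0.207 for WT LICs against LSK cells and 0.232 for the comparisons of Ezh2 KO LICs. The fit was tested on simulated data. Where a group mean lay under background, a fold is a bound against background.

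The members, gene lists and tests were chosen with earlier results of these data known. All members were named, with the called genes of each list or up to 3 with the smallest p, and the 5 most and 2 least alike in pattern among brighter genes, leaving out predicted genes and the X and Y chromosomes. No scan date was used, so batch and group cannot be told apart. Deviations of arrays with the same repeat number correlated between -0.05 and 0.14, so repeat numbers were not taken as pairs. Markers of T cells (3 of 5 measured, sums of 34.5 to 50.8 on all arrays) and neutrophils (4 of 6, 80.1 to 479) were also read. Alternatives were scaling, prior, weights, a filter, probe set choice, a repeat block, separate fits and each array left out. Plots used matplotlib 3.10.9.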

Additional observations from a re-analysis of the deposited data

How the results depend on the processing

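Over 27 results (9 subunits in 3 comparisons) and 18 settings, 462 of 483 values kept their direction and side of the threshold, 8 lost a call, 1 gained one and 12 changed sign. The gain was Mtf2 between Ezh2 KO LICs and LSK cells with a trended robust prior (adjusted p = 0.0498). With the compared groups fitted alone, 0 subunits were called for Ezh2 KO against WT LICs and 1 against LSK cells. With the repeat number as a block, also 1 was called in the latter, and Ezh1 had an adjusted p of 0.0915 there; the numbers are not shown to pair the samples. Leaving out each array in turn gave 1 to 2 called subunits between Ezh2 KO LICs and LSK cells. For the related lists together it gave 1 to 2 calls for WT LICs against LSK cells, 0 to 2 for Ezh2 KO against WT LICs and 1 to 5 for Ezh2 KO LICs against LSK cells, and for the proliferation list 0 to 5, 0 to 1 and 0 to 3. These last counts were added after the data had been seen.

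The largest value to change sign was Mtf2 between Ezh2 KO LICs and LSK cells, at -0.58 on its brightest probe set and 0.014 with the mean of all. Phf19 between Ezh2 KO and WT LICs became 0.033 with cyclic loess, 0.18 with array weights, 0.0014 with the repeat block, and lay between -0.26 and 0.18 with an array left out. For WT LICs against LSK cells, with an array left out, Aebp2 lay between -0.12 and 0.17 and Phf19 between -0.017 and 0.42. With the mean of all probe sets, Eed in WT LICs against LSK cells became -0.053, Mtf2 and Aebp2 in Ezh2 KO against WT LICs became 0.049 and -0.14, and Phf19 and the balance of Ezh1 to Ezh2 in Ezh2 KO LICs against LSK cells became -0.092 and 0.078. With an array left out this balance lay between -0.65 and 0.39.

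Over all genes, 424, 79 and 430 were called in the 3 comparisons, and 176 to 917, 25 to 146 and 118 to 643 under the alternatives. Median centring raised the higher share among all calls from 37.0% to 52.2% in WT LICs against LSK cells and from 46.5% to 59.7% in Ezh2 KO LICs against LSK cells. Phf1 and 1 probe set each of Eed, Suz12, Phf19 and Aebp2 lay near or under background, which limits what they show.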
